A study of Lupinus albus with 12 samples.

Results

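CASP-like genes encode small membrane proteins related to the Casparian strip membrane domain proteins, and 43 of the 33388 genes in the white lupin (Lupinus albus) root table belong to them. They were chosen by name, as the genes whose deposited protein name contains "CASP-like" or "Casparian strip". All 43 were named "CASP-like protein" and 0 were named "Casparian strip", so the deposited names do not tell the Casparian strip proteins proper from their relatives, and the genes are called CASP-like here. The deposited protein family annotation placed 40 of the 43 in the Casparian strip membrane protein (CASP) family and no gene outside the 43 in it. The 3 members without that family annotation were Lalb_Chr03g0043581, Lalb_Chr00c03g0404211 and Lalb_Chr02g0150541.

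In Arabidopsis, the CASP proteins gather in a belt of the endodermal plasma membrane and hold the machinery that builds the Casparian strip, a lignin seal in the wall that makes solutes cross a living cell before they enter the stele. That machinery is known to include peroxidases, an NADPH oxidase and a dirigent protein. CASP-like relatives are found throughout land plants, many of them outside the endodermis, and for most the function is not known. The role of the individual lupin members is not given in the deposited table.

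The plants were wildtype white lupin of the cultivar Amiga, grown in hydroponic Hoagland solution. Controls were harvested at 0 min without added sucrose, and treated plants after 20, 40 or 80 min in solution brought to 10 mM sucrose. Each of the 4 groups held 3 plants, and each library was 1 plant. The harvested tissue was root sections that included the tips, so the libraries mix all cell types of the young root, and fewer cells of a type cannot be told apart from less RNA per cell. All controls were taken at the start, so time since the start of the experiment cannot be told apart from time in sucrose.

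Libraries held 35050877 to 105299704 reads assigned to genes, with the fewest in 20 min replicate 2 and the most in 80 min replicate 2. The 12 libraries did not separate by group on the leading principal component of all genes tested, which carried 18.8% of the variance. Later components were not examined. On the leading one, 20 min replicate 2 lay at 156 and 80 min replicate 3 at 108. The other 80 min plants, replicates 1 and 2, lay at -145 and -129. Some of the results that rest on 20 min replicate 2 or 80 min replicate 3 are given with and without them, others only with all plants. These 2 plants were picked because they stood apart in these same data. Values of p without them are therefore descriptions and no support for a difference. The 4 genes named as root cap proteins all had reads, with a summed level of 62.8 to 134 FPKM (fragments per kilobase of transcript scaled to library size, as deposited) in controls, and no gene name in the table matched the endodermal regulators SHORT-ROOT or SCARECROW.

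The CASP-like genes differed widely in level, from a mean of 35.0 FPKM for the most abundant to 0.00508 FPKM for the least. Over the 12 plants, 9 members averaged 10 FPKM or more, 18 lay between 1 and 10 FPKM, and 16 lay under 1 FPKM. The order of mean levels was led by Lalb_Chr02g0154781 at 35.0 FPKM, Lalb_Chr24g0393511 at 30.1, Lalb_Chr02g0154791 at 29.7, Lalb_Chr17g0340851 at 22.6, Lalb_Chr01g0010061 at 18.2, Lalb_Chr13g0303861 at 17.6, Lalb_Chr08g0233151 at 15.5 and Lalb_Chr06g0172491 at 15.0. Neighbours in that order overlapped from plant to plant, and their order is a description of means. These 8 genes together made up 64.7% of the members' summed mean FPKM, and the leading 4 made up 41.4%. Of the 43 members, 35 had enough reads to be tested and 8 did not, and differences between plants are given in CPM, a read count scaled to library size. All 43 had reads in at least 1 library, and 30 had reads in all 12.

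**Figure D1:**
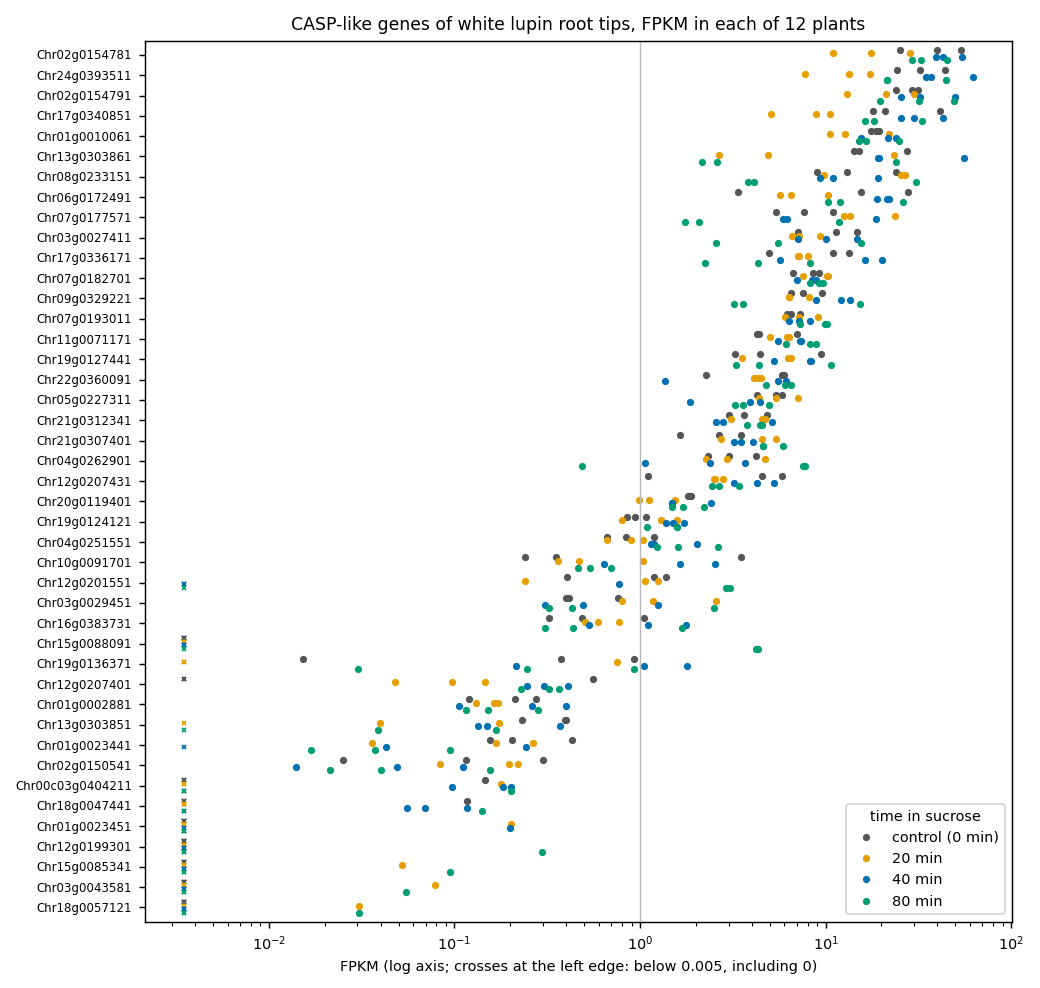
FPKM (log axis) of each of the 43 CASP-like genes in each of the 12 plants, 1 point per plant, coloured by time in sucrose and ordered by mean level, with the prefix Lalb_ left off the gene names. The 9 most abundant genes average 10 FPKM or more, and Lalb_Chr15g0088091 stands out low in the list with points from only 2 of the 80 min plants.

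The members lay on 22 of the 25 chromosomes of the RefSeq annotation of the assembly CNRS_Lalb_1.0, with 1 member on an unplaced sequence, and all 43 were annotated as protein coding. There were 4 neighbouring pairs. Lalb_Chr02g0154781 and Lalb_Chr02g0154791 on chromosome 2 had 0 protein-coding genes between them and both were among the 3 most abundant members. Lalb_Chr13g0303861 and its neighbour Lalb_Chr13g0303851 on chromosome 13 also had 0 genes between them, but averaged 17.6 and 0.175 FPKM. On chromosome 12, Lalb_Chr12g0207431 averaged 3.38 FPKM and Lalb_Chr12g0207401, with 1 gene between them, 0.227 FPKM. The adjacent genes Lalb_Chr01g0023441 and Lalb_Chr01g0023451 on chromosome 1 were both low, at 0.141 and 0.0334 FPKM. So neighbours ranged from similar levels to levels far apart. How the authors' counting treated reads that match several genes is not given in the sources used here, and the counts of such neighbours, as of any members with similar sequences, are uncertain to that extent.

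The deposited table gives a Length value for each gene without naming its unit. It ran from 67 to 304 over the members, with a median of 194. The 4 members under 120 included all 3 without the family annotation, and none of the 4 averaged more than 0.111 FPKM. The table placed 41 of the 43 products in the plasma membrane.

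As a group, the CASP-like genes made up a small and variable part of the transcriptome. Their share of summed FPKM was 0.0554%, 0.0731% and 0.0955% in the 3 control plants, and 0.0589%, 0.0648% and 0.0566% in the 20 min plants. It was 0.0909%, 0.0951% and 0.0763% in the 40 min plants, and 0.0525%, 0.0550% and 0.107% in the 80 min plants. The 20 min plants lay close together within the lower part of the control range. Of the 80 min plants, replicates 1 and 2 had the lowest shares of all 12 and replicate 3 the highest. Of the 9 sucrose plants, 6 lay within the range of the 3 untreated plants.

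None of the 35 members tested passed the test in any of the 8 comparisons. The test was edgeR's quasi-likelihood test over the 28980 genes tested, with genes called at a Benjamini-Hochberg adjusted p below 0.05. This count of 0 has to be read against few calls among all genes, which amounted to 0.0242% of genes tested at 20 min against control, 0.0897% at 40 min, 0.0104% at 80 min, 0.162% for the mean of the 3 sucrose times against control and 0.0725% in the F test for any difference among the 4 groups. It was 0.0% of genes tested at 40 against 20 min, 0.0% at 80 against 40 min and 0.0% at 80 against 20 min. The 0 among the members is near that background and is no result about the CASP-like genes.

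Without adjustment, 4 members had p below 0.05 in edgeR at 20 min against control, where 12.6% of all genes did, 0 at 40 min against 5.99% of all genes, and 1 at 80 min against 9.91% of all genes. The count was 1 for the mean of the sucrose times against 9.18% of all genes, and 2 for the F test against 13.4% of all genes. Between sucrose times it was 4 at 40 against 20 min, where 14.2% of all genes had such a p, 1 at 80 against 40 min beside 4.51% of all genes, and 3 at 80 against 20 min beside 17.3% of all genes. All of these shares lay near or below the background.

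DESeq2, run as a second count test, called 1 member at 20 min against control, where it called 4.09% of the genes to which it gave an adjusted p, 2 members at 40 against 20 min beside 4.99% of genes, and 2 members over the 4 groups beside 8.02% of genes. It called 0 members in the other 5 comparisons. All of its calls fell on Lalb_Chr17g0340851 and Lalb_Chr24g0393511. The authors' deposited table, also made with DESeq2, had 1 of 34 members called at 20 min, on the lower side, where 4.09% of all its genes were called. It had 0 called at 40 min beside 1.93% of its genes, and 0 at 80 min beside 2.97%.

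At 20 min, 3 of the 4 most abundant CASP-like genes had log2 fold changes of -0.97 or lower against controls, and none of them passed edgeR's test. Lalb_Chr17g0340851 had 13.8, 7.95 and 16.1 CPM in the 20 min plants, against 25.2, 31.9 and 57.8 CPM in control plants. All 3 of the 20 min plants lay below all controls. The means were 12.6 ± 4.20 CPM at 20 min and 38.3 ± 17.2 CPM in controls (SD, n = 3 each), a log2 fold change of -1.60 (SE 0.41) with an adjusted p of 0.218 in edgeR's quasi-likelihood test. DESeq2 gave -1.63 and an adjusted p of 0.00995 for the same gene, so its call rests on the choice of test. Without both 20 min replicate 2 and 80 min replicate 3, edgeR gave -1.44 and an adjusted p of 0.0492, in a setting that called 8.16% of all genes. Over all 18 alternatives the adjusted p ran from 0.00995 to 0.568 and the log2 fold change from -1.83 to -1.26.

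Lalb_Chr24g0393511 had the same layout. Its levels were 20.1, 11.8 and 25.6 CPM in the 20 min plants and 33.0, 47.8 and 60.1 CPM in controls, again with no overlap. The log2 fold change was -1.29 (SE 0.41), with an edgeR adjusted p of 0.267 and a DESeq2 adjusted p of 0.0553, so neither tool called it. Over the alternatives the adjusted p ran from 0.0553 to 0.631.

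The most abundant member, Lalb_Chr02g0154781, had 25.4, 16.0 and 40.2 CPM at 20 min, compared with 32.6, 57.0 and 70.7 CPM in controls. Here the groups overlapped, because the highest 20 min plant exceeded the lowest control. The log2 fold change was -0.97 (SE 0.37) with an edgeR adjusted p of 0.334. Its neighbour on chromosome 2, Lalb_Chr02g0154791, was closer to controls, at 35.1, 22.1 and 48.7 CPM at 20 min and 44.1, 39.5 and 47.4 CPM in controls. The difference of the neighbour was -0.31 (SE 0.38) on the log2 scale, within its error.

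Lalb_Chr06g0172491 varied most among the abundant members within the controls. It had 10.4, 12.1 and 18.5 CPM at 20 min, compared with 5.55, 28.2 and 46.1 CPM in controls, which spread wider than the sucrose plants. Its log2 fold change of -0.96 (SE 0.62) had an edgeR adjusted p of 0.534. Lalb_Chr01g0010061 was the steadiest control gene of the 8, at 32.9, 34.7 and 30.0 CPM, and had 19.9, 42.1 and 23.5 CPM at 20 min. At 20 min its plants lay on both sides of the controls, with a log2 fold change of -0.19 (SE 0.31).

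On the higher side at 20 min, Lalb_Chr21g0307401 had 12.1, 7.42 and 14.1 CPM in the 20 min plants, against 8.41, 4.31 and 6.45 CPM in controls. The groups overlapped by 1 plant on each side, and the log2 fold change of 0.81 (SE 0.32) had an edgeR adjusted p of 0.344. Lalb_Chr03g0029451, a member near 1 FPKM, had 4.79, 2.25 and 1.46 CPM at 20 min, compared with 0.699, 0.745 and 1.30 CPM in controls. Its 20 min plants all exceeded the controls, but they differed among themselves more than the controls did, and the log2 fold change of 1.63 (SE 0.86) had an edgeR adjusted p of 0.459. Lalb_Chr07g0177571, named after its values were seen, was the other member with all 20 min plants higher, at 56.9, 30.8 and 32.0 CPM against 11.8, 18.2 and 24.0 CPM in controls. Its log2 fold change was 1.15 (SE 0.74), with an edgeR adjusted p of 0.535.

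Counted over all 35 members tested, 15 lay above 0 and 20 below 0 at 20 min against control, with a median log2 fold change of -0.12 beside 0.06 over all genes tested. In 4 members every 20 min plant was below every control, where 10.8% of all genes were, and in 2 every 20 min plant was above, where 10.8% of all genes were. Only Lalb_Chr17g0340851 and Lalb_Chr24g0393511 had their 3 plants at 20 min as the lowest of all 12, which 2.48% of all genes tested showed. No member had them as the highest of all 12, which 2.06% of all genes showed. These 2 genes were described after their values were seen.

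Levels of some other genes also stood apart at 20 min, and not alike in the 3 plants. The alcohol dehydrogenase gene Lalb_Chr23g0271341 had 7675, 287 and 5161 FPKM at 20 min, against 1266, 901 and 650 FPKM in controls, while the other 27 genes of that name, all with reads, summed to 432, 412 and 420 FPKM at 20 min, against 472, 472 and 726 FPKM in controls. The 39 leaf photosynthesis genes, all with reads, summed to 733, 146 and 431 FPKM at 20 min, against 243, 187 and 242 FPKM in controls. Replicate 2 was low in Lalb_Chr23g0271341 and in the photosynthesis sum, while replicates 1 and 3 were high in both. The 4 root cap genes summed to 25.6, 49.8 and 27.0 FPKM at 20 min, against 115, 62.8 and 134 FPKM in controls. The part of these differences in the levels of the CASP-like genes was not tested.

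**Figure D2:**
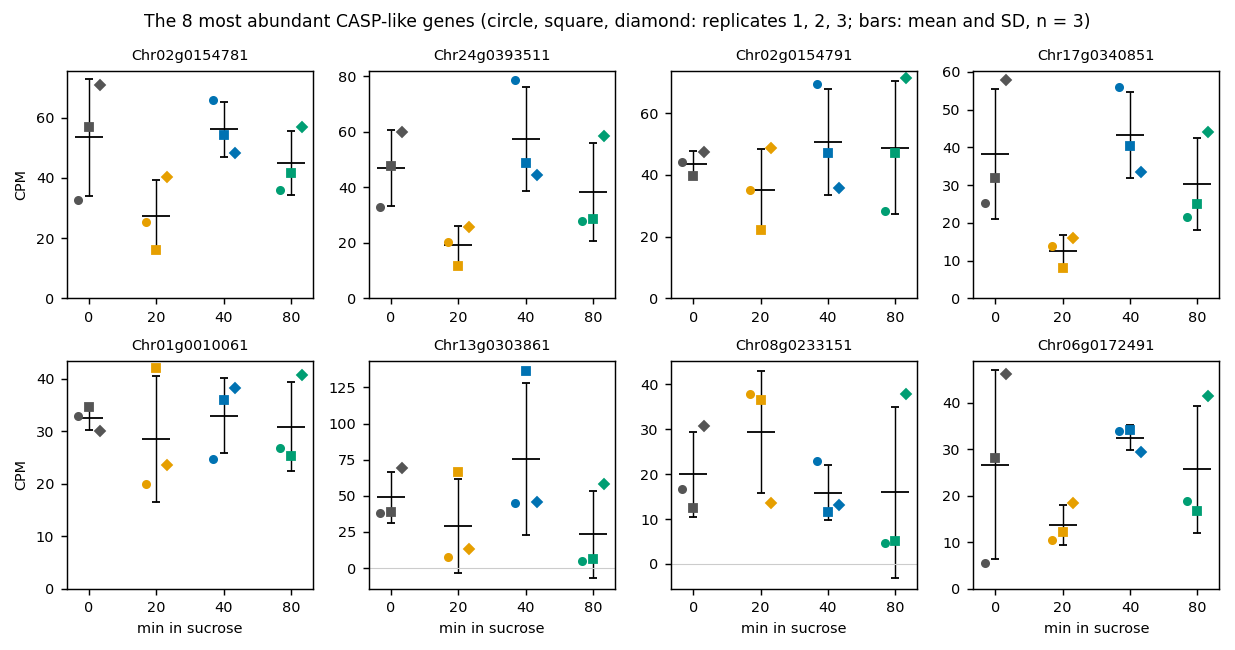
CPM of the 8 most abundant CASP-like genes in each plant (circle, square and diamond for replicates 1, 2 and 3) by min in sucrose, with bars for mean and SD (n = 3), and the prefix Lalb_ left off. For Lalb_Chr17g0340851 the 20 min plants lie between 7.95 and 16.1 CPM and the controls between 25.2 and 57.8 CPM, and for Lalb_Chr13g0303861 plants of the same group lie far apart.

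At 40 min the same abundant genes stood at or above the control level. Lalb_Chr17g0340851 had 55.9, 40.4 and 33.5 CPM at 40 min, within the control range given above. Against 20 min, where its highest plant had 16.1 CPM, there was no overlap, and the log2 fold change of 40 over 20 min was 1.78 (SE 0.42). Its edgeR adjusted p was 0.214 and its DESeq2 adjusted p 0.00361. Lalb_Chr24g0393511 had 78.7, 48.9 and 44.4 CPM at 40 min, against 20.1, 11.8 and 25.6 CPM at 20 min, a log2 fold change of 1.58 (SE 0.41) with an edgeR adjusted p of 0.219 and a DESeq2 adjusted p of 0.0126. For Lalb_Chr02g0154781 the 40 min plants had 66.0, 54.3 and 48.2 CPM, all above the 20 min plants, with a log2 fold change of 1.04 (SE 0.37) and an edgeR adjusted p of 0.275. DESeq2 called the first 2 of these genes at 40 against 20 min and edgeR called none. Over the alternatives, the adjusted p at 40 against 20 min ran from 0.00361 to 0.603 for Lalb_Chr17g0340851 and from 0.0126 to 0.603 for Lalb_Chr24g0393511. In edgeR without both 20 min replicate 2 and 80 min replicate 3, it was 0.0302 and 0.0312 for these genes, in that order, where 10.7% of all genes were called.

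Lalb_Chr06g0172491 likewise had every 40 min plant above every 20 min plant, at 33.9, 34.2 and 29.3 CPM against 10.4, 12.1 and 18.5 CPM. The difference was 1.25 (SE 0.62) on the log2 scale, with an edgeR adjusted p of 0.396. In the other direction, Lalb_Chr05g0227311 had 2.39, 5.87 and 5.04 CPM at 40 min and 10.9, 6.74 and 8.05 CPM at 20 min, a log2 fold change of -0.95 (SE 0.38) with an edgeR adjusted p of 0.307. In total, 5 members had all 40 min plants above all 20 min plants, where 9.52% of all genes tested did, and 1 member had them all below, where 8.93% did. The 40 against 20 min comparison shares the 20 min plants with the comparison of 20 min against control, so a low 20 min level enters both.

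Against controls, no member reached an unadjusted p below 0.05 at 40 min. Of the 35 members, 23 lay above and 12 below 0, with a median log2 fold change of 0.18 beside 0.08 over all genes. The largest departures by p on the higher side were Lalb_Chr19g0124121, at 1.81, 2.36 and 1.98 CPM at 40 min and 1.32, 1.31 and 1.52 CPM in controls, and Lalb_Chr04g0251551, at 1.53, 2.68 and 1.48 CPM and 1.17, 0.994 and 1.65 CPM in controls. Their log2 fold changes were 0.56 (SE 0.37) and 0.58 (SE 0.45). On the lower side, Lalb_Chr05g0227311 had the 40 min values given above, against 5.86, 8.08 and 8.09 CPM in controls, with a log2 fold change of -0.73 (SE 0.38). Lalb_Chr02g0150541, which is under 0.5 CPM in every plant, had -1.28 (SE 1.07). All 4 had edgeR adjusted p-values of 0.912 or more.

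At 80 min the 3 plants did not form one group for many CASP-like genes. In 13 of the 35 members tested, replicate 3 was more than 2-fold above both other 80 min plants, where 19.7% of all genes tested were, and in 1 member, Lalb_Chr04g0262901, it was more than 2-fold below both, where 15.7% of all genes were. Whether the members differ from other genes in this was not tested. Lalb_Chr04g0262901 had 11.2, 11.9 and 0.742 CPM at 80 min, compared with 6.58, 5.20 and 3.70 CPM in controls. Replicates 1 and 2 were both lower than all 10 other plants in 6 of the 35 members, where 9.41% of all genes tested were, and both higher in 2, Lalb_Chr11g0071171 and Lalb_Chr04g0262901, where 12.0% of all genes were. Apart from Lalb_Chr13g0303861, Lalb_Chr08g0233151 and Lalb_Chr17g0336171, the genes named for these patterns were chosen after their values were seen.

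Among the 6, Lalb_Chr13g0303861 had the widest range. It had 5.17, 6.43 and 58.2 CPM at 80 min, compared with 38.2, 39.0 and 69.5 CPM in controls, and its 20 min plants, at 7.43, 66.1 and 13.4 CPM, were as divided. At 40 min it had 44.8, 136 and 45.6 CPM. The highest plant of each sucrose group, 20 min replicate 2, 40 min replicate 2 and 80 min replicate 3, was also among the 3 highest of the 12 on the leading principal component of all genes, to which the gene itself contributes. Its log2 fold change at 80 min against control was -1.07 (SE 1.03), with an edgeR adjusted p of 0.727. Without both 20 min replicate 2 and 80 min replicate 3 the log2 fold change was -3.08 with an edgeR adjusted p of 0.0332, where 5.54% of all genes were called. Those plants were the highest of their groups in this gene, so leaving them out widens the difference and this p is no support for it. Over the alternatives the adjusted p ran from 0.0332 to 0.969. The neighbouring gene Lalb_Chr13g0303851, named after its values were seen, had 0, 0.0571 and 0.224 CPM at 80 min and 0.544, 0.621 and 0.32 CPM in controls, so its 80 min plants all lay below the controls, at a few reads per library.

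Lalb_Chr08g0233151 had 4.65, 5.14 and 37.9 CPM at 80 min, compared with 16.6, 12.5 and 30.6 CPM in controls and 37.8, 36.5 and 13.7 CPM at 20 min. Lalb_Chr07g0177571 had 3.65, 4.45 and 24.8 CPM at 80 min, against the 20 min values of 30.8 CPM or more given above. For that gene all 80 min plants lay below all 20 min plants, with a log2 fold change of -1.86 (SE 0.76) for 80 over 20 min and an edgeR adjusted p of 0.250. Lalb_Chr09g0329221 had 3.90, 3.59 and 16.9 CPM at 80 min, compared with 10.9, 8.06 and 8.63 CPM in controls. Lalb_Chr03g0027411 had 3.74, 8.30 and 22.9 CPM at 80 min, compared with 10.9, 19.1 and 22.7 CPM in controls. In each of these 4 genes replicate 3 was the highest of the 80 min plants.

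Leaving out 80 min replicate 3 moved the calls. At 80 against 20 min, 3 of 36 members were then called by edgeR, where 12.0% of the 29569 genes then tested were called and 0.0% were called with all plants. These counts leave out Lalb_Chr15g0088091, which enters that fit only through the 2 plants in which it was read. The members called were Lalb_Chr07g0177571, with a log2 fold change of -3.25 (adjusted p 0.0193), Lalb_Chr08g0233151, with -2.53 (adjusted p 0.0282), and Lalb_Chr09g0329221, with -1.17 (adjusted p 0.0339). At 80 against 40 min Lalb_Chr09g0329221 was called in the same way, with a log2 fold change of -1.70 and an adjusted p of 0.0443, and was 1 of 36 members where 0.616% of all genes were called. The share of 3 in 36 lies below the background of all genes at 80 against 20 min, and nothing in the labels marks replicate 3 as different. Over all alternatives the adjusted p at 80 against 20 min ran from 0.0160 to 0.568 for Lalb_Chr07g0177571, from 0.0282 to 0.886 for Lalb_Chr08g0233151 and from 0.0339 to 0.993 for Lalb_Chr09g0329221, whose log2 fold change ran from -1.17 to 0.24 and so changed sign.

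**Figure D3:**
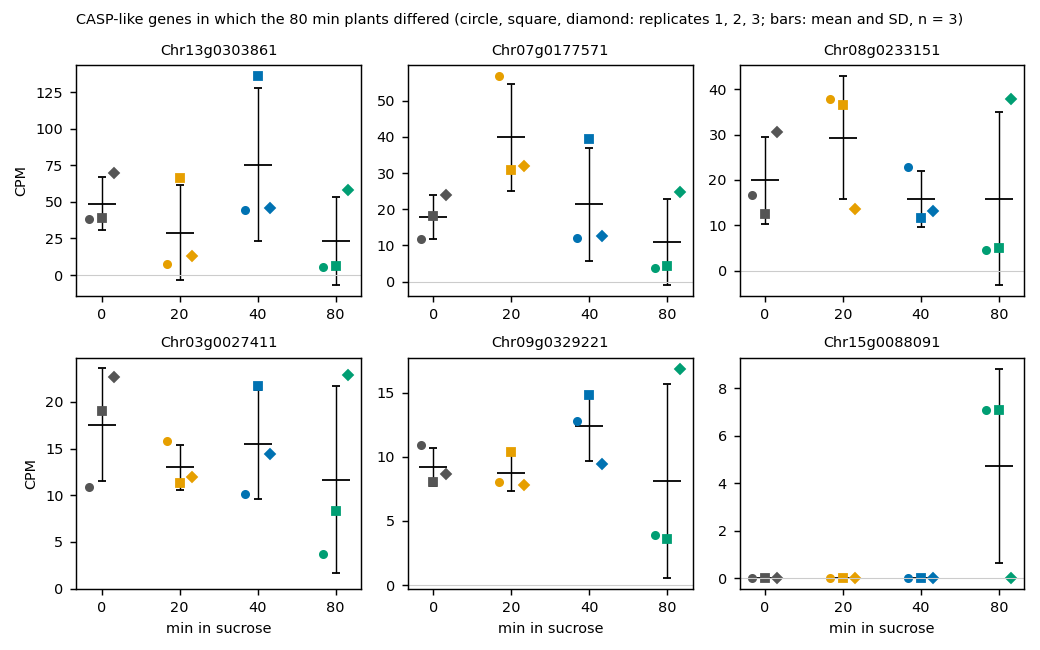
CPM by min in sucrose for 6 CASP-like genes chosen because the 80 min plants lie apart (circle, square and diamond for replicates 1, 2 and 3; bars for mean and SD, n = 3), with the prefix Lalb_ left off. In the first 5 panels 80 min replicate 3 lies far above replicates 1 and 2, as in Lalb_Chr13g0303861 with 58.2 CPM against 5.17 and 6.43 CPM, and in Lalb_Chr15g0088091 the other two plants are the only ones with reads.

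Lalb_Chr15g0088091 was read in 2 plants only. It had 620 and 743 reads, or 7.09 and 7.07 CPM, in 80 min replicates 1 and 2, and 0 reads in 80 min replicate 3, in all 20 and 40 min plants and in all controls. A count of 0 allows a level of up to 3 reads per library, which was at most 0.0583 CPM in a control. The 80 min plant with the lower of the 2 levels was therefore at least 121-fold higher than any control, and the mean of all 3 plants at 80 min at least 81.1-fold higher. The gene had too few libraries with reads to enter the main test. With 80 min replicate 3 left out it passes the filter only through the plants in which it was read. No test from that fit is given. With all plants, DESeq2 gave the gene a log2 fold change of 10.5 at 80 min against control, with an adjusted p of 0.196. The authors' deposited table, also made with DESeq2, gave 10.5 and an adjusted p of 0.197, and neither called it. The gene was named after its values were seen, and the cause of its absence from replicate 3 was not tested.

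With all 3 plants, 1 member had an unadjusted p below 0.05 at 80 min against control. Lalb_Chr21g0307401 had 13.4, 10.8 and 10.7 CPM at 80 min, all above its controls at 8.41, 4.31 and 6.45 CPM. The means were 11.6 ± 1.57 CPM at 80 min and 6.39 ± 2.05 CPM in controls (SD, n = 3 each), and the log2 fold change of 0.86 (SE 0.32) had an edgeR adjusted p of 0.451. At 40 min the same gene had 7.89, 7.44 and 9.13 CPM, between those levels. It was also the single member with an unadjusted p below 0.05 for the mean of the sucrose times against control, with a log2 fold change of 0.68 (SE 0.27) and an edgeR adjusted p of 0.486. Lalb_Chr04g0251551 followed, at 1.61, 2.16 and 3.47 CPM at 80 min and 1.17, 0.994 and 1.65 CPM in controls, with 0.93 (SE 0.45) and an adjusted p of 0.526 in edgeR.

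On the lower side at 80 min, Lalb_Chr17g0336171 had 4.90, 2.62 and 9.34 CPM, against 5.83, 17.3 and 13.1 CPM in controls and 6.30, 18.8 and 22.4 CPM at 40 min. It overlapped with both. Its log2 fold changes were -1.10 (SE 0.58) against control, with an edgeR adjusted p of 0.547, and -1.49 (SE 0.58) against 40 min, the lone unadjusted p below 0.05 in that comparison. Lalb_Chr01g0023441 had 0.0229, 0.0571 and 0.140 CPM at 80 min, all below its controls at 0.621, 0.319 and 0.224 CPM, with a log2 fold change of -2.39 (SE 1.39) and an edgeR adjusted p of 0.580. Over the 35 members the median log2 fold change at 80 min was -0.14 beside 0.12 over all genes, with 15 above and 20 below 0. Of the abundant members that were low at 20 min, Lalb_Chr17g0340851 had 21.7, 25.1 and 44.2 CPM at 80 min, and its log2 fold change over control was -0.34 (SE 0.40), or -0.69 with an edgeR adjusted p of 0.352 without 80 min replicate 3. Lalb_Chr24g0393511 had 27.8, 28.4 and 58.5 CPM, and -0.72 with an edgeR adjusted p of 0.303 without that plant. In both genes replicates 1 and 2 lay below all controls and replicate 3 within the control range. Lalb_Chr02g0154781 had 36.1, 41.7 and 56.8 CPM, all within its control range, and -0.43 with an edgeR adjusted p of 0.567 without replicate 3.

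**Figure D4:**
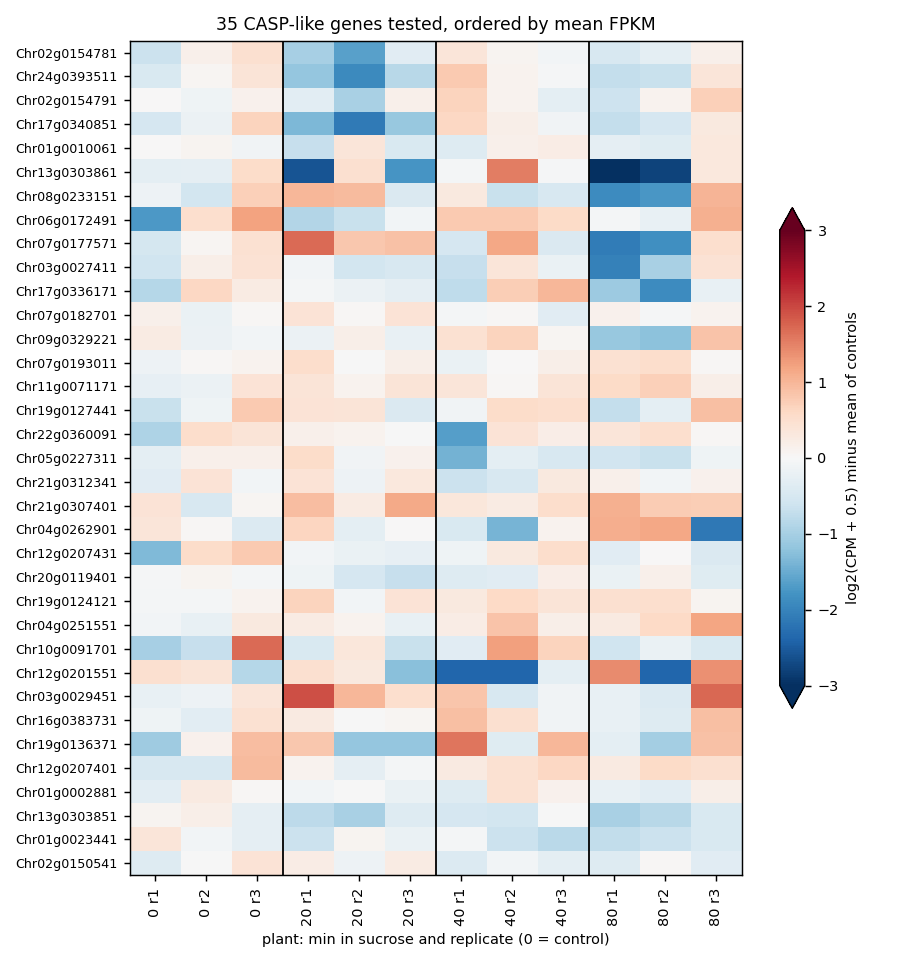
Each cell is log2(CPM + 0.5) of 1 of the 35 CASP-like genes tested in 1 of the 12 plants, minus the mean of the 3 control plants, with genes ordered by mean FPKM, plants by time in sucrose (0 = control) and the prefix Lalb_ left off. The 20 min plants are blue for Lalb_Chr17g0340851 and Lalb_Chr24g0393511, and 80 min replicates 1 and 2 share a blue block in the upper part that replicate 3 lacks.

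**Figure D5:**
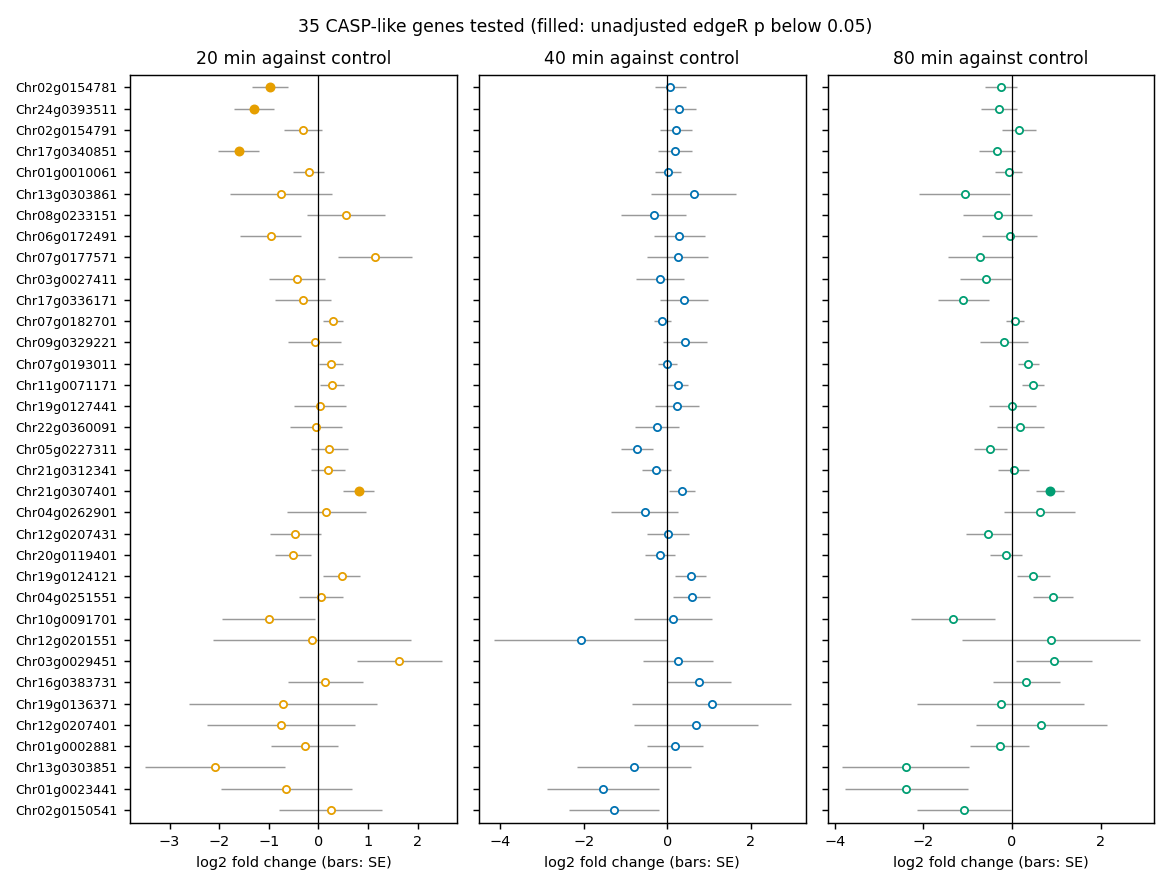
Log2 fold change over control with its SE (bars) at 20, 40 and 80 min for the 35 CASP-like genes tested, filled where edgeR's unadjusted p was below 0.05 and with the prefix Lalb_ left off. There are 4 filled points at 20 min, 0 at 40 min and 1 at 80 min, and no point passed after adjustment over all genes.

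With all plants, 28 of the 35 members tested had an unadjusted edgeR p of 0.05 or more in all 8 comparisons. Among them were genes of middling level, such as Lalb_Chr07g0182701, which averaged 8.66 FPKM and had 22.8, 17.3 and 22.7 CPM at 20 min, 16.1, 17.5 and 13.3 CPM at 40 min and 18.7, 16.4 and 18.1 CPM at 80 min. Its controls had 18.8, 14.8 and 17.5 CPM. Its plants stayed within a narrow range in every group. Lalb_Chr07g0193011 at 7.64 FPKM, Lalb_Chr19g0127441 at 6.15 FPKM, Lalb_Chr22g0360091 at 4.78 FPKM and Lalb_Chr21g0312341 at 3.92 FPKM were also read in all 12 plants. Lalb_Chr22g0360091 had 1 low plant in each of 2 groups, at 3.36 CPM in 40 min replicate 1 and 5.96 CPM in control replicate 1, with the other plants of these groups at 13.6 CPM or more. These genes were chosen after their values were seen. Of the 8 members not tested, 7 had at most 45 reads over all 12 libraries and a mean of at most 0.0840 FPKM, and the last was Lalb_Chr15g0088091. Of these 7, Lalb_Chr12g0199301 had its 45 reads in a single plant, 80 min replicate 1. At these depths a difference between groups was not detectable.

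Families that include the machinery working with CASP proteins in Arabidopsis, and lists for lignin and suberin, were found by gene names. Few of their genes passed edgeR's test, and few of all genes did. Whether any of these genes works with a CASP-like protein was not tested. Dirigent proteins, which guide the coupling of lignin precursors, numbered 32, and 26 were tested. For the mean of the 3 sucrose times against control, edgeR called 0 of the 26 higher and 1 lower, a share above the 0.162% of all genes. It called 0 in each of the other 7 comparisons. At 20 min against control, 1 was higher and 3 were lower at an unadjusted edgeR p below 0.05, beside 12.6% of all genes in either direction. DESeq2 called 1 higher and 1 lower there, beside 4.09% of all genes. The called gene, Lalb_Chr03g0028631, had 3.63, 0.557 and 4.12 CPM in the plants at 20 min. It had 2.32, 2.77 and 3.51 CPM in those at 40 min and 6.91, 8.32 and 3.91 CPM in those at 80 min, against 55.1, 51.9 and 22.0 CPM in controls. All 9 sucrose plants lay below all controls, a log2 fold change of -3.54 with an adjusted p of 0.0179. The most abundant, Lalb_Chr12g0207301, averaged 267 FPKM, more than any CASP-like gene.

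Class III peroxidases, which oxidise the precursors, numbered 81, with 74 tested. Lalb_Chr02g0143031 was called lower at 20 min, at 2.43, 2.84 and 3.31 CPM against 17.9, 18.8 and 17.9 CPM in controls, a log2 fold change of -2.67 with an edgeR adjusted p of 0.0266. It was also called in the F test, and with Lalb_Chr04g0251831 for the mean of the sucrose times. That made 1 of 74 lower at 20 min, 2 of 74 lower for the mean, and 0 higher in both. Of all genes, edgeR called 0.0242% at 20 min, 0.162% for the mean and 0.0725% in the F test. The peroxidase shares lie above these, but rest on 1 or 2 genes. DESeq2 called more of them, with 5 of 71 lower at 20 min beside 4.09% of all genes called in either direction, 9 of 71 lower at 80 min beside 2.98%, 7 of 71 lower at 80 against 40 min beside 0.86% and 12 of 71 over the 4 groups beside 8.02%. It called 0 of the 71 higher at 20 min, at 80 min and at 80 against 40 min. At 40 against 20 min it called 5 higher and 1 lower, beside 4.99% of all genes in either direction. At 80 against 20 min it called 1 higher and 5 lower, beside 2060 of 28829 genes. At 40 min against control it called 1 lower, beside 566 of 30108 genes. For the mean of the sucrose times it called 5 lower, beside 760 of 29464 genes. In edgeR, 0 of the 8 NADPH oxidases tested, which make the superoxide behind the peroxide that peroxidases use, were called in any comparison. The same held for the 24 laccases, the 55 enzymes of lignin monomers and the 62 genes on the suberin list. At 20 min against control these 4 lists had 1, 1, 6 and 2 genes higher and 0, 1, 4 and 4 lower at an unadjusted edgeR p below 0.05. Among all genes 12.6% had such a p in either direction. DESeq2 called 1, 0, 1 and 4 genes there, beside 4.09% of all genes. At 80 min against control the unadjusted edgeR counts were 0, 1, 1 and 0 higher and 2, 5, 2 and 1 lower, beside 9.91% of all genes. DESeq2 called 1, 1, 0 and 1 there, beside 2.98%.

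The median log2 fold change at 20, 40 and 80 min over control was -0.12, 0.18 and -0.14 for the 35 CASP-like genes, beside 0.06, 0.08 and 0.12 for all genes. It was -0.34, 0.20 and -0.23 for the 26 dirigent proteins tested, -0.71, -0.17 and -0.87 for the 24 laccases and -0.23, -0.16 and -0.56 for the 8 NADPH oxidases. At 20 min the other lists lay above 0. They had 0.11, 0.09 and -0.17 for the 74 class III peroxidases and 0.23, 0.06 and -0.17 for the 55 lignin monomer enzymes. The 62 genes on the suberin list had 0.04, 0.08 and -0.17. All 3 of these comparisons share the control plants. Dirigent proteins summed to 967, 641 and 1177 FPKM at 20 min and 569, 696 and 1298 FPKM at 80 min, against 1128, 1152 and 1289 FPKM in controls. In this sum, as in that of the CASP-like genes, 80 min replicate 3 stood above replicates 1 and 2, while the laccases summed to 266, 250 and 159 FPKM at 80 min, with replicate 3 the lowest.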

How the data were processed

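RNA was sequenced from 12 white lupin root samples, 3 plants in each of 4 groups. The authors' table gives read counts per gene, raw whole numbers per the file headers. It also gives FPKM as deposited by the authors, and their DESeq2 log2 fold changes and p-values, of which the adjusted ones were used. The submitters' processing notes name DESeq2, StringTie, HISAT2, Trimmomatic 0.32, FastQC and bcl2fastq 2.20, without roles. Which genome build was used, whether counting used strand, and how multiply matching reads were counted is not given in the sources used here, so no coordinates are printed. Gene identifiers matched RefSeq's annotation of CNRS_Lalb_1.0 for 33388 of 33388 genes.

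Counts were filtered with edgeR's filterByExpr (28980 genes kept) and tested with edgeR 4.0.16 in R 4.3.3, with TMM scaling and robust glmQLFit and glmQLFTest, in a single fit by group over all 12 libraries with 8 residual degrees of freedom. Adjustment was by Benjamini-Hochberg over all genes tested. DESeq2 1.42.0 was the second test, and an adjusted p it did not give stayed missing. SE was computed as the absolute log2 fold change over the root of F. CPM carry the TMM factors. The procedure was also run on simulated counts. These had less spread than the common dispersion of 0.449 estimated here, so that run does not show what could be detected in these data. Any 2 libraries of a group differed by more than sampling noise. Floors of 3 reads cover counting error only, since the reads carried no molecular identifiers.

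The members and lists were chosen with earlier results of these data known. Named members were the 8 most abundant, any called, and the 2 with the smallest p in each direction at each time. Other genes were named only as the most abundant or a called gene of a list. Lists were matched by words in the protein names, and cover dirigent proteins, NADPH oxidases, laccases, class III peroxidases, lignin monomer and suberin enzymes, root cap, root hair and epidermis, phloem, cyclins, leaf photosynthesis, alcohol dehydrogenases and aquaporins. A word match can take in genes outside what a list is named for. Lists for SHORT-ROOT with SCARECROW and for GDSL lipases matched 0 genes. The abbreviations of the 2 regulators were dropped after the table was seen, because they matched unrelated words. Alternatives were other scaling, DESeq2, no filter, only the libraries compared, a replicate block, the 2 libraries that stand apart left out, and each library left out in turn.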

Additional observations from a re-analysis of the deposited data

Results flagged for a closer look

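One CASP-like gene stood on opposite sides of the controls at 2 times. For Lalb_Chr06g0172491 all 20 min plants (10.4, 12.1 and 18.5 CPM) lay below the control mean of 26.6 CPM and all 40 min plants (33.9, 34.2 and 29.3 CPM) above it, with log2 fold changes over control of -0.96 at 20 min and 0.29 at 40 min. Leaving out 1 library at a time, the value at 20 min ran from -1.44 to -0.39. The controls themselves ran from 5.55 to 46.1 CPM. This pattern of sides was not tested as such, and the direct difference, 40 against 20 min, was 1.25 on the log2 scale with an adjusted p of 0.396 in edgeR's quasi-likelihood test. Both fold changes use the same control plants.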

How the results depend on the processing

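With DESeq2, the members called were 1 at 20 min against control, 2 at 40 against 20 min and 2 over the 4 groups, beside 0 with edgeR in each. With 20 min replicate 2 and 80 min replicate 3 left out together, edgeR called 1 member at 20 min and 3 at 80 min against control, 5 over the 4 groups, 3 at 40 against 20 min, 3 at 80 against 40 min and 4 at 80 against 20 min, where 8.16%, 5.54%, 15.2%, 10.7%, 2.27% and 17.8% of all genes were called in that order. Leaving out 1 library at a time, the members called ranged from 0 to 0 at 20 and 40 min against control, for the mean of the sucrose times and at 40 against 20 min, from 0 to 1 at 80 min against control, over the 4 groups and at 80 against 40 min, and from 0 to 4 at 80 against 20 min. Every count above 0 came without 80 min replicate 3, where 1.56%, 1.80%, 0.616% and 12.0% of all genes were called in these 4 comparisons. Lalb_Chr15g0088091, which then enters only through the 2 plants in which it was read, is 1 of the members called each time except at 80 against 40 min. It is also 1 of those called with both plants left out at 80 min against control, over the 4 groups and at 80 against 40 and 20 min. The cause was not tested. The log2 fold change of Lalb_Chr01g0010061 at 20 min against control ran from -0.64 to 0.012 when 1 library was left out, beside -0.19 with all plants, and changed sign without 20 min replicate 1. With Lalb_Chr15g0088091 counted wherever it entered, counts of members called stayed at 0 in 129 of 142 recomputations. The 16 named members kept their direction and side of the threshold in 284 of 288, each taken in its comparison against control with the smallest p. In other comparisons some crossed the threshold, as given in the results.

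With the replicate number as a block, 0 members were called in every comparison. The correlation of same-numbered plants' deviations from their group means ran from -0.22 to 0.16, which shows no pairing by number. Weak correlations cannot show that same-numbered plants were handled apart, and this was not tested. Depth limits 7 of the 8 members that were not tested. It also limits tested members with few reads, such as Lalb_Chr02g0150541 with 141 reads over all 12 libraries. For members with more reads, the spread among 3 plants limits the tests.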

Other observations

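Lists named for other tissues and states of the root were read from the same libraries. They were matched by words. The cyclin list was led by a gene named cyclin-dependent kinase inhibitor, so it is not a list of cyclins alone. Against control at 20, 40 and 80 min, edgeR called 0 of 4 root cap genes and 0 of 52 root hair and epidermis genes tested. The latter were extensins and expansins. Of the other lists, edgeR called 0 of 115 genes of the cyclin list, 0 of 34 leaf photosynthesis genes, 0 of 27 alcohol dehydrogenases and 0 of 3 aquaporins tested. At 20 min the counts at an unadjusted p below 0.05 in either direction were 3, 10, 15, 4, 9 and 0, in the same order of lists, beside 12.6% of all genes, and DESeq2 called 0, 5, 1, 2, 2 and 0 beside 4.09% of all genes. At an unadjusted p the root cap, root hair and epidermis, and alcohol dehydrogenase counts are shares above that of all genes. The count of the cyclin list is near it. DESeq2 called 0 of 4 root cap genes, 5 of 52 root hair and epidermis genes and 2 of 26 alcohol dehydrogenases. Of 20 phloem protein genes tested, edgeR called 1 lower at 40 min, beside 0.0897% of all genes. At 20 min, 3 were higher and 2 lower at an unadjusted edgeR p below 0.05, beside 12.6% of all genes. DESeq2 called 3 of 20 at 20 min beside 4.09%, and 3 of 21 at 40 min beside 566 of 30108 genes. The gene edgeR called was Lalb_Chr01g0018441, with 34.2, 44.6 and 36.5 CPM at 40 min, compared with 194, 192 and 108 CPM in controls. Its log2 fold change was -2.10 with an edgeR adjusted p of 0.0300. For the mean of the sucrose times edgeR also called it, at -1.66 with an adjusted p of 0.0127, beside 0.162% of all genes. All 9 sucrose plants of that gene, at 34.2 to 74.6 CPM, lay below its controls.

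A gene on the suberin list was as divided within groups as the CASP-like gene Lalb_Chr13g0303861. It was matched by words, and its name does not place it in suberin synthesis. The suberin list was led by Lalb_Chr13g0290931, named feruloyl-CoA 6-hydroxylase, with 7.85, 482 and 10.98 FPKM at 20 min and 41.7, 13.3 and 367 FPKM at 80 min, against 367, 199 and 134 FPKM in controls. As in Lalb_Chr13g0303861, 20 min replicate 2 and 80 min replicate 3 were the high plants of their groups.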
